A study of Mus musculus with 12 samples.

Results

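The genes described here are 10 mouse transcription factors that pattern the neural tube along its length and between its back and belly sides: Pax2, Pax3, Pax6, Pax7, En1, En2, Gbx2, Irx2, Irx3 and Nr2f1. They were followed in neurospheres made from skin and embryonic fibroblasts, in the pluripotent route to neural cells and in brain-derived neurospheres. The members were taken by name and were chosen with earlier results of these data known. Each was read from the brightest probe set (mean over 12 arrays) whose annotation names only that gene. Probe sets were found for 9 of the 10, 16 probe sets in all, and all 9 genes were among the 13650 that reached a signal of 20 on at least 1 array. Pax2 had no probe set naming it in the annotation used here and is not analysed further.

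The 12 arrays fall into 7 groups. Brain-derived neurospheres came from the ganglionic eminence (GE), the ventral forebrain swelling, at embryonic day 14 (1 array), and adult skin fibroblasts were measured directly (1 array). Neurospheres derived from adult fibroblasts, which the labels call iNSC, were grown with EGF and cAMP (replicate 1) or with LIF (replicate 2). Those derived from embryonic fibroblasts were grown with LIF (replicate 3) or with LIF and cAMP (replicate 4). The pluripotent group holds the iPS line 38C2 (replicate 1) and the ES line EB3 (replicate 2), and each line also gave 1 primary and 1 secondary neurosphere culture. The mice were C57BL/6 except for the ES and iPS cells, and all neurospheres were kept in the medium MHM. How the fibroblasts were converted is not given in the labels, the embryonic source fibroblasts are not analysed here, and the arrays of a pair differ in medium or in line, so p-values measure the spread between these arrays only.

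Pax proteins carry a paired DNA-binding domain. Pax3 and Pax7 are close relatives that mark the dorsal neural tube, and Pax3 also acts in neural crest and muscle precursors, whereas Pax6 marks forebrain, eye and intermediate spinal cord progenitors. Pax2, En1 and En2 belong to the network at the border of midbrain and hindbrain, and Gbx2 sets that border from the hindbrain side against Otx2 on the midbrain side. Gbx2 is also a target of LIF signalling in mouse ES cells. Iroquois (Irx) genes lie in clusters and act in caudal neural patterning and in many other tissues. Nr2f1 (COUP-TFI) is an orphan nuclear receptor of forebrain area patterning that retinoic acid induces in differentiating pluripotent cells.

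Promoter sequences, from 250 bases before to 50 bases after a transcript's start, were found for 8 of the 10 members in RefSeq on build GRCm38.p6; Pax3 and En2 had no entry. The windows of 4 are printed as examples of genes highest in pluripotent cells (Gbx2), in primary neurospheres (Pax7 and Irx3) and in secondary neurospheres (En1). They are Gbx2 at chr1:89931127-89931426 (minus strand), Pax7 at chr4:139832919-139833218 (minus), Irx3 at chr8:91801605-91801904 (minus) and En1 at chr1:120602237-120602536 (plus). Capitals mark a GC box (GGGCGG, or CCGCCC on the printed strand) or a CCAAT box (CCAAT, or ATTGG).
Gbx2: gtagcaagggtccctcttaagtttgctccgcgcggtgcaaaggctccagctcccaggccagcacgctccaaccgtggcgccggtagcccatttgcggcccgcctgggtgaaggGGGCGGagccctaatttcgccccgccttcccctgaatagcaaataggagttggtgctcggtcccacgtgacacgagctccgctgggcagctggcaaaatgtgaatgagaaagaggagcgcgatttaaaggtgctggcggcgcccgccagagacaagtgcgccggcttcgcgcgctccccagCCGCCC
Pax7: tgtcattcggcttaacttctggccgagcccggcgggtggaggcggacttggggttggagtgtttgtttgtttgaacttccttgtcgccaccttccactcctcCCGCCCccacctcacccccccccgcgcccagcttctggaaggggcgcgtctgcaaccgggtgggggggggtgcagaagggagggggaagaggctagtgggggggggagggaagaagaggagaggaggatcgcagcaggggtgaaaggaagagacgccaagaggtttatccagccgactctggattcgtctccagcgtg
Irx3: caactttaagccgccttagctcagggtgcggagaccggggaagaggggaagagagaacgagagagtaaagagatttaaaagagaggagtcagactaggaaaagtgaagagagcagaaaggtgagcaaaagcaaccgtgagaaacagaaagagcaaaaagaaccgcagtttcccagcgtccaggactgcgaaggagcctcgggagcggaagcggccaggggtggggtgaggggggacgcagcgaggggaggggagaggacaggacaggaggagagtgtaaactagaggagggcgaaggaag
En1: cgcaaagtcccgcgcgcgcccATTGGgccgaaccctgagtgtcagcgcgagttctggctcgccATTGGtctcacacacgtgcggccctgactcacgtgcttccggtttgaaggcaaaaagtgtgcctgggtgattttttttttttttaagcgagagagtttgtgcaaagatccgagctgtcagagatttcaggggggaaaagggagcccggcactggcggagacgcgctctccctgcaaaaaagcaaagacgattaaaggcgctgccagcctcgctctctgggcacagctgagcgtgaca

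The Gbx2 window held a GC box 137 bases before the start and a reverse one 45 bases after it, the Pax7 window a reverse GC box 148 bases before the start, and the En1 window reverse CCAAT boxes 229 and 187 bases before it. The Irx3 window held no match. Over all 32851 promoter windows, both strands, the GC box was found in 35.7% and the CCAAT box in 37.4%. None of the member windows held the homeodomain core TAATTA (5.29% of all windows), the nuclear receptor element AGGTCA (16.3%) or the TATA box TATAAA (13.6%). No match in the printed windows overlaps another. The printed windows were rich in CpG: 27 CpG in Gbx2, 23 in En1, 17 in Pax7 and 14 in Irx3, against a median of 7 over all windows. Their GC content was 64.7%, 57.0%, 63.7% and 56.0% in that order, against a median of 52.7%.

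Values are MAS5 signals, a linear measure of probe brightness in arbitrary units, with every array scaled to a trimmed mean of 100, and 40.5% to 49.1% of probe sets reached 20 on an array. Levels of different genes cannot be set against each other, since probe sets differ in brightness. A difference between groups is given as a log2 difference of (signal + 5) with its standard error (SE). It understates changes of dim genes, and in bulk RNA fewer cells of a type and less RNA per cell cannot be told apart. Cell type markers moved with the groups: the summed signal of 8 neural stem cell markers was 17256 in the GE neurospheres, 9340 to 14054 in primary and secondary neurospheres, 3690 and 3496 in the pluripotent lines, 1112 to 2432 in the fibroblast-derived neurospheres and 137 in fibroblasts. Sox2, which pluripotent cells share, made up 3353 and 3418 of the pluripotent sums, 1826 and 2092 of the embryonic-derived sums of 2219 and 2432, and 85.6 and 791 of the adult-derived sums of 1112 and 1855. The sum of 6 pluripotency markers was 14031 and 14881 in the pluripotent lines and 2489 to 6873 in the fibroblast-derived neurospheres, where 5 or 6 of the 6 reached 20. It was 215 in the iPS-derived but 4255 in the ES-derived primary neurospheres, 35.6 and 194 in the secondary ones, and at most 20.4 in GE neurospheres and fibroblasts. The 8 fibroblast markers summed to 33070 in fibroblasts, 362 to 2996 in the fibroblast-derived neurospheres, 979 in GE neurospheres and 86.4 to 4953 elsewhere. The part of these markers in the members' differences was not tested.

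**Figure D1:**
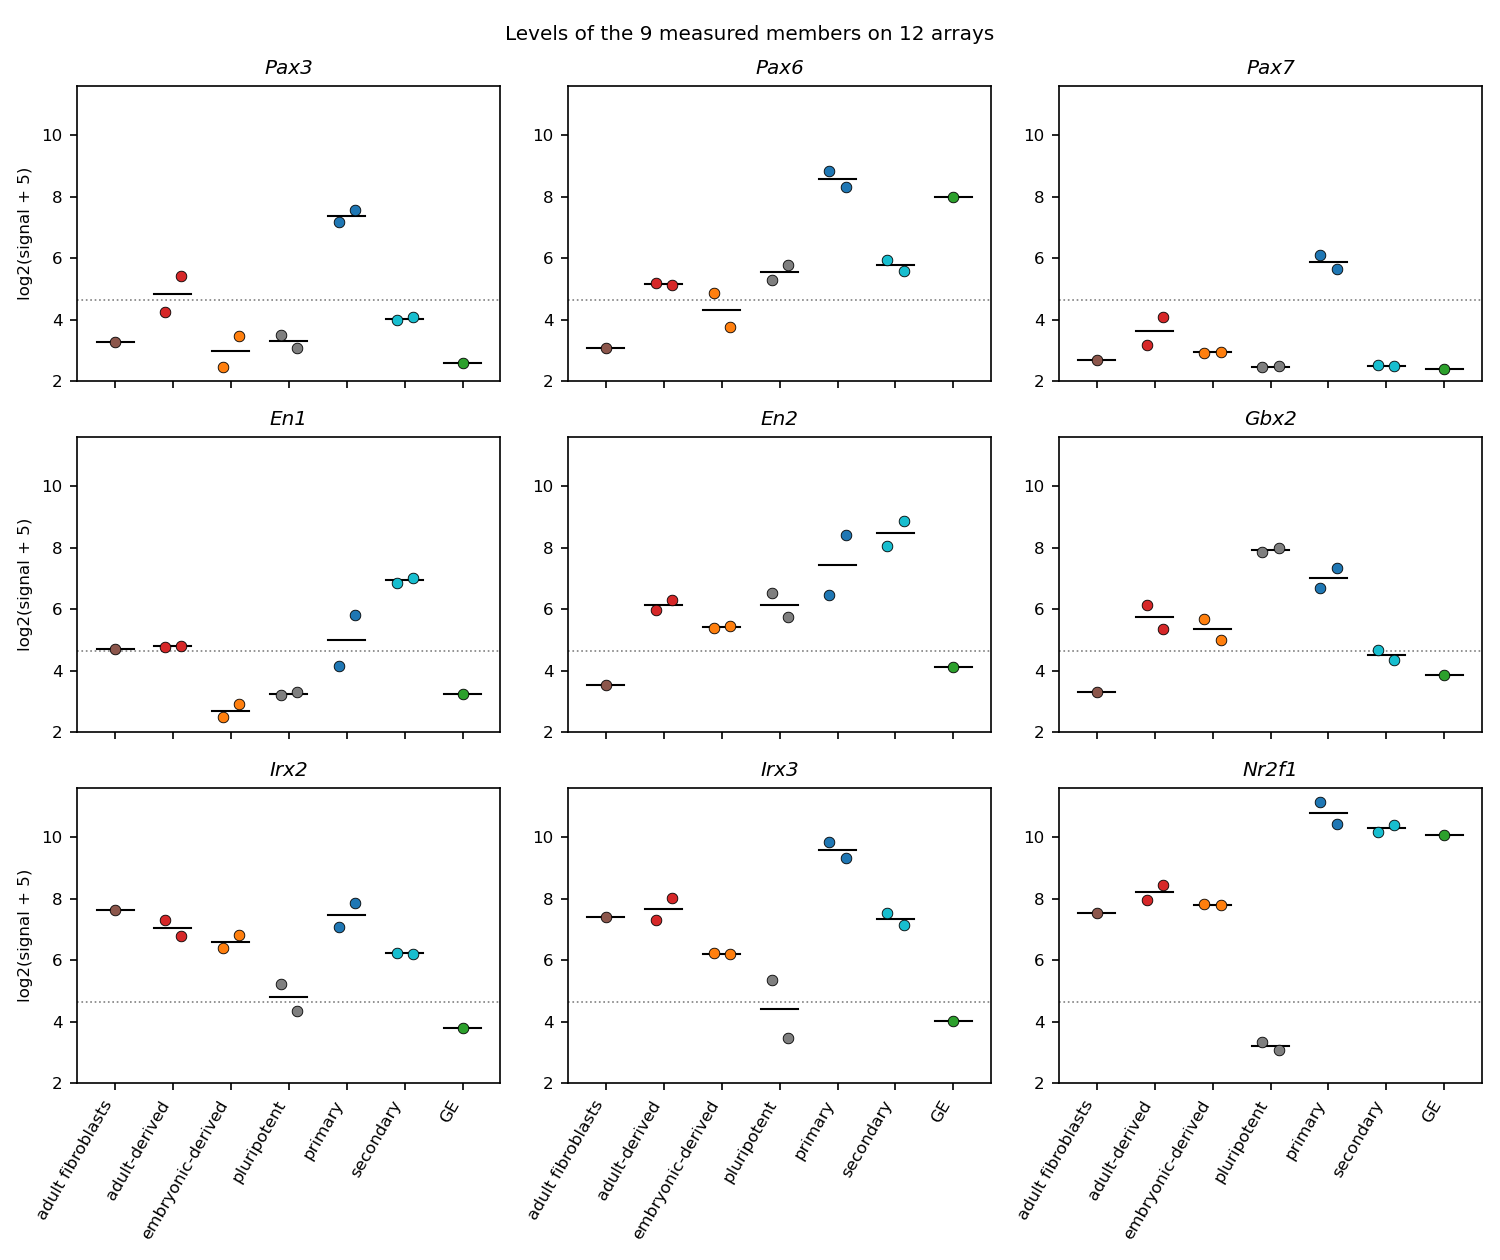
Level of each measured member, as log2(signal + 5), on the 12 arrays; points are arrays, horizontal bars are group means, and the dotted line stands at a signal of 20. Pax3 and Pax7 stand high only on the 2 primary neurosphere arrays, and Nr2f1 lies below the line only on the 2 pluripotent arrays.

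Pax3 and Pax7, the dorsal neural tube pair, had 1 high group each. The Pax3 signal was 141 and 186 in the primary neurospheres from iPS and ES cells. It was 14.1 and 37.9 in the adult-derived neurospheres, 11 and 11.8 in the secondary neurospheres, 0.5 and 6.1 in the embryonic-derived neurospheres, 6.3 and 3.5 in the pluripotent lines, 4.6 in fibroblasts and 1.0 in GE neurospheres. Both primary arrays lay far above every other array, and only the adult-derived culture with LIF also passed 20. In the order of group means the step from primary (163 ± 32, SD, n = 2) to adult-derived neurospheres (26 ± 16.8, n = 2) was 2.54 ± 0.49 on the log2 scale, and every lower neighbour differed by less than 2 SE.

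Pax7 followed the same order at the top. Its signal was 63.3 and 45.4 in the primary neurospheres, 4.1 and 11.9 in the adult-derived and 2.6 and 2.7 in the embryonic-derived neurospheres. All other arrays read between 0.3 and 1.5. Only the primary arrays were above 20, and the step from primary to adult-derived neurospheres was 2.24 ± 0.39, with no lower step above 2 SE. Over the 12 arrays the log2 levels of Pax3 and Pax7 had a Pearson correlation of 0.93, given as a description.

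Pax6, the forebrain, eye and intermediate spinal cord factor, was high in 2 kinds of neurosphere. Its signal was 449 and 311 in the primary neurospheres and 248 in the GE neurospheres. It was 56.8 and 43.2 in the secondary neurospheres, 34.0 and 50.1 in the pluripotent lines, 31.6 and 29.7 in the adult-derived and 24.1 and 8.7 in the embryonic-derived neurospheres, and 3.5 in fibroblasts. Primary and GE neurospheres did not differ beyond 2 SE (0.58 ± 0.50), and a step of 2.21 ± 0.50 separated them from the rest. Below it, secondary, pluripotent and adult-derived cells were within 2 SE of their neighbours, the embryonic-derived pair was lower than the adult-derived pair by 0.84 ± 0.41, and fibroblasts were lower again by 1.23 ± 0.50.

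En1 and En2, the homeodomain factors of the midbrain-hindbrain region, were highest in the secondary neurospheres. The En1 signal was 112 and 124 there, 13.0 and 51.8 in the iPS- and ES-derived primary neurospheres, 22.4 and 23.0 in the adult-derived neurospheres and 21.0 in fibroblasts. It was 0.6 to 4.8 in the embryonic-derived neurospheres, the pluripotent lines and the GE neurospheres. The adult-derived cultures read close to the fibroblast array, and the embryonic-derived ones had the lowest group mean, within 2 SE of GE and pluripotent cells. The secondary group stood above the primary group by 1.94 ± 0.50, and fibroblasts above pluripotent cells by 1.45 ± 0.61.

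En2 had a broader spread. Its signal was 261 and 466 in the secondary and 84.0 and 334 in the primary neurospheres, 58.3 and 74.4 in the adult-derived and 36.9 and 38.5 in the embryonic-derived neurospheres, 86.4 and 49.3 in the pluripotent lines, 12.6 in GE neurospheres and 6.5 in fibroblasts. Secondary and primary neurospheres overlapped (gap 1.03 ± 0.59), and primary neurospheres stood above the adult-derived pair by 1.29 ± 0.59. Every lower neighbouring pair was within 2 SE. En1 and En2 correlated at r = 0.71 over 12 arrays.

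Gbx2 was the only member highest in pluripotent cells, with signals of 227 in iPS and 249.6 in ES cells. The primary neurospheres read 97.4 and 156, the adult-derived neurospheres 65.9 with EGF and cAMP and 36.0 with LIF, the embryonic-derived neurospheres 46.9 with LIF and 26.7 with LIF and cAMP. Secondary neurospheres read 20.4 and 15.3, GE neurospheres 9.5 and fibroblasts 5.0. Pluripotent, primary and adult-derived cells were separated by steps of 0.92 ± 0.40 and 1.25 ± 0.40, and the embryonic-derived pair stood above secondary neurospheres by 0.84 ± 0.40. The pluripotency marker sum had another order below the pluripotent lines: it was 6583 and 6873 in the embryonic-derived, 2489 and 4005 in the adult-derived and 215 and 4255 in the primary neurospheres.

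Irx2 and Irx3, members of the 2 Iroquois clusters, were already expressed in fibroblasts. The Irx2 signal was 194 in fibroblasts, 154 and 105 in the adult-derived and 79.7 and 108 in the embryonic-derived neurospheres, 131 and 231 in the primary and 70.7 and 69.7 in the secondary neurospheres. It fell off to 32.3 and 15.6 in the pluripotent lines and 8.8 in GE neurospheres. No neighbours among the first 5 groups differed beyond 2 SE, and the steps to pluripotent (1.44 ± 0.40) and GE cells (1.01 ± 0.49) did. Groups further apart in this order may differ by more.

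Irx3 had the wider range. Its signal was 926 and 644 in the primary neurospheres, 154 and 254 in the adult-derived neurospheres, 165 in fibroblasts, 182 and 138 in the secondary and 71.1 and 68.4 in the embryonic-derived neurospheres. It was 35.8 in iPS cells, 6.2 in ES cells and 11.3 in GE neurospheres. Adult-derived, fibroblast and secondary levels could not be ordered, while the primary group stood 1.94 ± 0.55 above them, the embryonic-derived pair 1.13 ± 0.55 below, and the pluripotent lines a further 1.81 ± 0.55 below. Irx2 and Irx3, which lie in different clusters, correlated at r = 0.86 over the 12 arrays.

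Nr2f1 separated pluripotent cells from all others. Its signal was 5.2 and 3.4 in the pluripotent lines, 180.3 in fibroblasts, 243 and 349 in the adult-derived and 222 and 218 in the embryonic-derived neurospheres. It was 2257 and 1386 in the primary neurospheres, 1163 and 1350.3 in the secondary neurospheres and 1082 in GE neurospheres. The 3 neurosphere groups of brain or pluripotent origin formed an upper level with no neighbours apart by 2 SE, the fibroblast-derived and fibroblast groups a middle level with none apart either. Only neighbours were set against each other in this ordering, so the first and last group of a level may differ by more. Steps of 1.88 ± 0.35 and 4.32 ± 0.35 separated upper from middle and middle from pluripotent.

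Differences among all 7 groups were tested for every gene with limma in 1 fit of the 12 arrays (5 residual degrees of freedom), 2-sided, with p-values adjusted over the 13650 genes of each comparison. A call is an adjusted p under 0.05, and the spread of a single-array group was taken from the groups with 2 arrays. Since the members were chosen with earlier results known, their share of calls beside that of all genes is a description. The F test passed for 9 of 9 members, with adjusted p from 3.96e-05 (Nr2f1) to 0.00368 (En2); 61.6% of all genes tested passed it. Scaling the arrays to a common median shifted the median of all genes by up to -0.37 (adult-derived against fibroblasts), and the share of higher among all calls then went from 63.0% to 36.1% there, from 67.6% to 38.6% against pluripotent cells, from 50.4% to 60.8% against secondary neurospheres, from 64.0% to 48.5% for primary against pluripotent, from 71.6% to 29.1% for secondary against primary and from 61.6% to 47.7% for secondary against GE neurospheres. No called member changed sign under either scaling alternative.

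**Figure D2:**
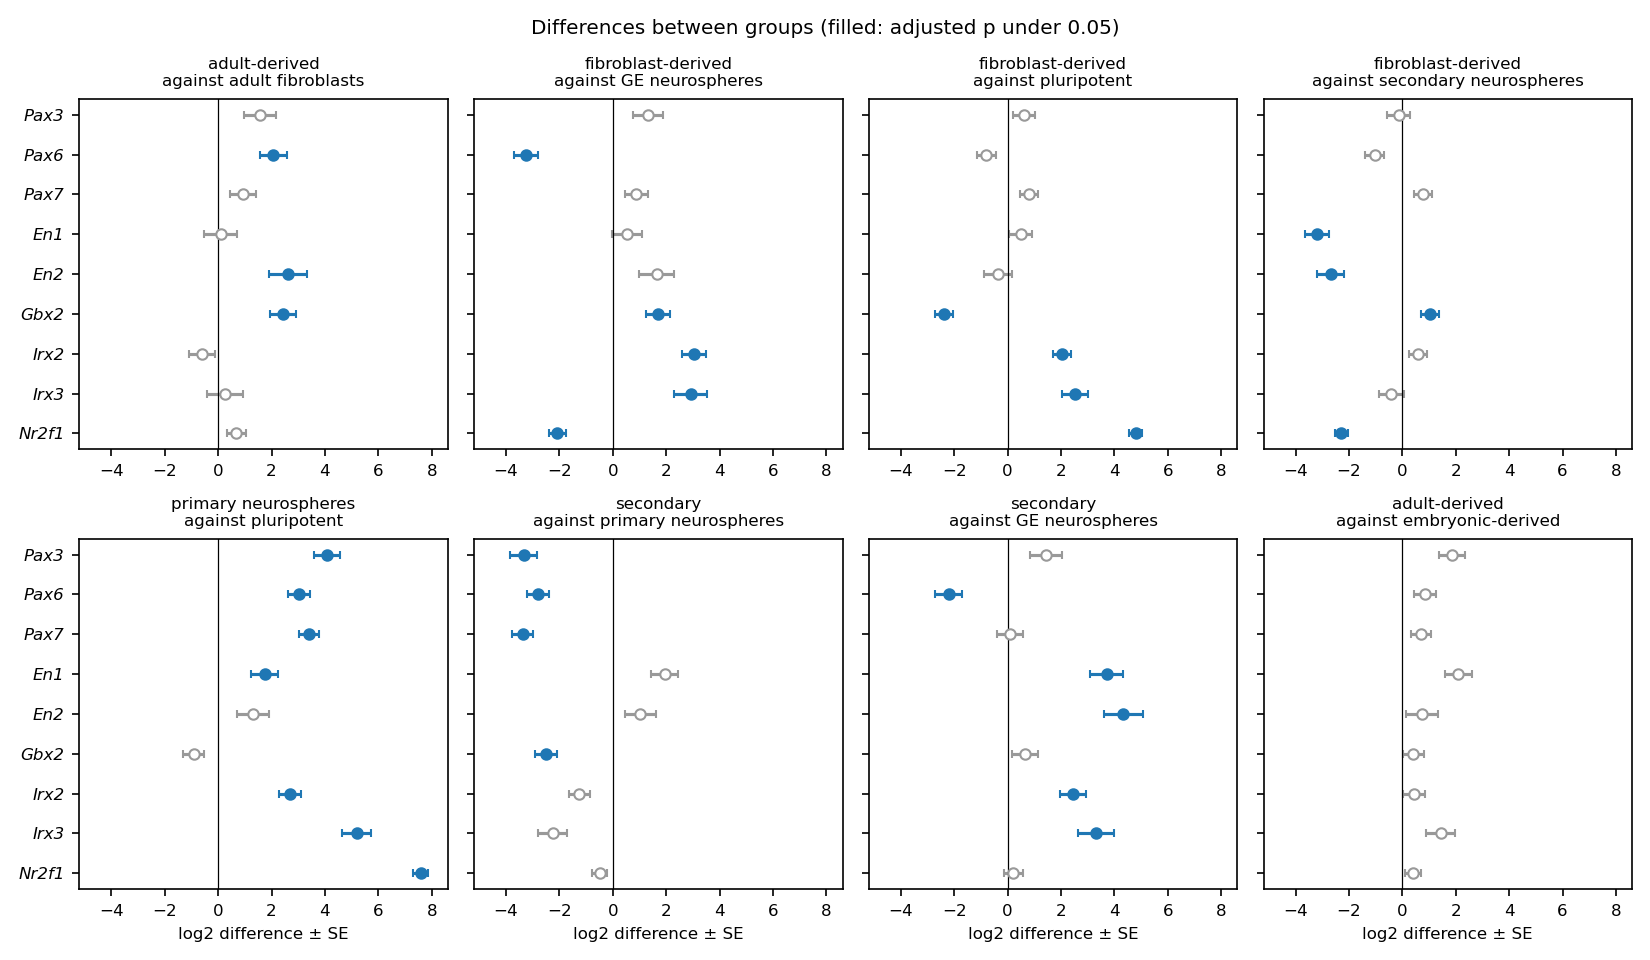
Log2 difference of (signal + 5) ± SE for each member in the 8 comparisons; filled points have a limma adjusted p under 0.05 and open points do not. The largest difference is that of Nr2f1 between primary neurospheres and pluripotent cells, at 7.58, and no point is filled in the panel of adult-derived against embryonic-derived neurospheres.

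The adult-derived neurospheres were set against adult fibroblasts, their cell type of origin. Pax6, En2 and Gbx2 rose, by 2.07 ± 0.50, 2.62 ± 0.72 and 2.43 ± 0.49 (adjusted p = 0.023, 0.0361 and 0.0116), so 3 of 9 members were higher where 12.3% of all genes were, and no member was among the 7.22% of genes that were lower. The signals behind these values are low, 3.5 to 6.5 in fibroblasts and 29.7 to 74.4 in the neurospheres. The factors that read 20 or more in fibroblasts did not pass: Irx2 at -0.59 ± 0.49, Irx3 at 0.25 ± 0.67, En1 at 0.09 ± 0.62 and Nr2f1 at 0.68 ± 0.35. Pax3 (1.58 ± 0.60, adjusted p = 0.0998) and Pax7 (0.93 ± 0.48, 0.207) lay higher in both neurosphere arrays without passing. With the mean of a gene's probe sets in place of the brightest, Pax3 passed (1.67 ± 0.48, 0.0434) and Pax6 did not (1.48, 0.0566). The median over the 9 members was 0.93 and over all genes 0.21. With 1 array of fibroblasts these calls depended on single arrays: without the culture with EGF and cAMP the adjusted p was 0.0811 for Pax6, 0.0925 for En2 and 0.0542 for Gbx2, without the culture with LIF it was 0.0657 for Pax6 and 0.113 for En2, and En2 was at 0.064 without embryonic-derived replicate 3 or 4. Pax6 and En2 also failed with a pseudocount of 0.2 times the trimmed mean (1.11 and 1.70, adjusted p = 0.0621 and 0.102), and Pax6 and Gbx2 when only these groups were fitted (0.0591 and 0.0656).

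Against GE neurospheres, the brain-derived reference, the fibroblast-derived neurospheres (both pairs, weighted equally) were lower in Pax6 and Nr2f1 and higher in Irx2, Irx3 and Gbx2. Pax6 was lower by a log2 difference of -3.25 ± 0.46 (adjusted p = 0.00149) and Nr2f1 by -2.08 ± 0.32 (0.00236). Irx2 was higher by 3.04 ± 0.44 (0.0018), Irx3 by 2.92 ± 0.61 (0.00894) and Gbx2 by 1.69 ± 0.45 (0.0227). The calls thus numbered 3 of 9 higher, against 15.6% of all genes, and 2 of 9 lower, against 12.8%; medians were 1.32 over members and 0.07 over all genes. En2 at 1.64 ± 0.66 (0.0954), Pax3 at 1.32 ± 0.55 (0.106), Pax7 at 0.88 ± 0.44 (0.168) and En1 at 0.51 ± 0.56 (0.531) did not pass, and for Pax3 and En1 some fibroblast-derived arrays lay below the GE array.

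The neural stem cell marker sum was 17256 in the GE culture and 1112 to 2432 in the fibroblast-derived ones, and its part in these values was not tested. Gbx2 no longer passed without embryonic-derived replicate 3 (1.51, adjusted p = 0.0573) or with the embryonic-derived pair alone (1.48, 0.0547). Pax3 passed with the adult-derived pair alone (2.25 ± 0.60, 0.0275) and without adult-derived replicate 1 (1.61 ± 0.49, 0.0498), and En2 passed without primary replicate 1 (0.0228) or 2 (0.0234) and with only these groups fitted (0.0118). The comparison rests on 1 GE array.

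Against the pluripotent lines, the fibroblast-derived neurospheres were higher in Nr2f1 by 4.80 ± 0.25 (adjusted p = 3.99e-05), in Irx3 by 2.53 ± 0.47 (0.00613) and in Irx2 by 2.04 ± 0.34 (0.00398), and lower in Gbx2 by a log2 difference of -2.38 ± 0.35 (0.00213). These are 3 of 9 members higher, where 20.4% of all genes were higher, and 1 of 9 lower, where 9.77% were. In none of these 4 genes did any fibroblast-derived array overlap a pluripotent one. They were picked by their calls, 6 of the 9 members did not overlap, and the share of all genes without overlap was not counted for this comparison. Both pairs alone gave the same calls, with Nr2f1 at 5.0 in the adult-derived and 4.60 in the embryonic-derived pair. Pax7 was at 0.81 ± 0.34 (0.103), Pax6 at -0.80 ± 0.35 (0.121), Pax3 at 0.61 ± 0.42 (0.307), En1 at 0.50 ± 0.43 (0.417) and En2 at -0.36 ± 0.51 (0.63). The median over members was 0.61 and over all genes 0.16. Pax7, whose second probe set had the other sign (-0.18), passed without adult-derived replicate 1 (1.03 ± 0.31, 0.0468) and with a pseudocount of 0.01 times the trimmed mean (0.0436), and Pax6 passed as lower after quantile scaling (-1.21, 0.0406) or scaling to a common median (-1.15, 0.0457). The pluripotency marker sum in the fibroblast-derived cultures was 2489 to 6873, and its part in these values was not tested.

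Against secondary neurospheres, made through pluripotent cells, the fibroblast-derived neurospheres were lower in both Engrailed genes and in Nr2f1. En1 was lower by a log2 difference of -3.20 ± 0.43 (adjusted p = 0.00103), En2 by -2.69 ± 0.51 (0.00495) and Nr2f1 by -2.29 ± 0.25 (0.000367), 3 of 9 members where 16.7% of all genes were lower. En1 was lower in both pairs alone, by -2.15 in the adult-derived (0.0173) and -4.24 in the embryonic-derived pair (0.000688). Gbx2 was higher by 1.04 ± 0.35 (0.0469), 1 of 9 where 17% of all genes were higher. Pax6 (-1.03 ± 0.35, 0.0522), Pax7 (0.79 ± 0.34, 0.107), Irx2 (0.60 ± 0.34, 0.212), Irx3 (-0.41 ± 0.47, 0.537) and Pax3 (-0.13 ± 0.42, 0.834) did not pass; the median over members was -0.41 and over all genes 0.05.

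The Gbx2 call against secondary neurospheres was lost in 13 of 22 alternatives, among them leaving out either secondary array (0.116 and 0.226), either pluripotent array (0.0562), adult-derived replicate 1 (0.113), embryonic-derived replicate 3 (0.133) or 4 (0.0522). En2 was lost without secondary replicate 2 (-2.27, 0.0537), which left 2 members called. Pax6 passed without embryonic-derived replicate 3 (-1.30, 0.0269) and with the embryonic-derived pair alone (-1.45, 0.0288), and Pax7 without adult-derived replicate 1 (1.01, 0.0461).

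Primary neurospheres, the first neural step from the same 2 lines, differed from their pluripotent source in most members. Nr2f1 rose by 7.58 ± 0.29 (adjusted p = 2.02e-05), Irx3 by 5.18 ± 0.55 (0.000546), Pax3 by 4.09 ± 0.49 (0.00086), Pax7 by 3.40 ± 0.39 (0.00073), Pax6 by 3.03 ± 0.41 (0.00147), Irx2 by 2.69 ± 0.40 (0.00211) and En1 by 1.75 ± 0.50 (0.0315). That is 7 of 9 members, where 19.3% of all genes were higher, and the median was 3.03 over members and 0.05 over all genes. Pax7 passed the signal filter only through the primary arrays, so its place in this count partly follows from the filter. Its call was kept when no filter was used. All 7 lay higher in both lines, by 0.97 (En1) to 7.79 (Nr2f1) in the iPS line and by 2.52 (Pax6) to 7.37 (Nr2f1) in the ES line. Gbx2 (-0.92 ± 0.40, 0.112) lay lower in both primary arrays without passing, while 10.8% of all genes passed as lower. En2 (1.30 ± 0.59, 0.126) changed by -0.04 in the iPS line and by 2.64 in the ES line. The En1 call was lost without ES-derived primary replicate 2 (0.92, 0.111), without pluripotent replicate 1 (0.0849) or 2 (0.0912), without embryonic-derived replicate 3 or 4 (0.0515) and with only these groups fitted (0.124), and En2 passed without the iPS-derived primary array (2.27, 0.0216).

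From primary to secondary neurospheres Pax3, Pax6, Pax7 and Gbx2 fell. Pax7 was lower by a log2 difference of -3.38 ± 0.39 (adjusted p = 0.00803), Pax3 by -3.35 ± 0.49 (0.0162), Pax6 by -2.80 ± 0.41 (0.0162) and Gbx2 by -2.50 ± 0.40 (0.0205). This was 4 of 9 members in a comparison where 0.791% of all genes were lower and 1.99% were higher. Here too Pax7 had passed the signal filter only through the primary arrays, so its place in the count partly follows from the filter. The Pax7 call was kept when no filter was used. In each of the 4 genes both secondary arrays lay below both primary arrays, and the change had the same sign in both lines, for Pax3 -3.19 in iPS and -3.51 in ES. This did not set the called genes apart. Of the 9 members, 8 showed no overlap, and every uncalled member also kept its sign in both lines. The 4 genes were picked by their calls, and the share of all genes without such overlap was not counted here. Irx3 (-2.25 ± 0.55, 0.0667), Irx2 (-1.25 ± 0.40, 0.127) and Nr2f1 (-0.50 ± 0.29, 0.378) lay lower, and En1 (1.94 ± 0.50, 0.0791) and En2 (1.03 ± 0.59, 0.373) higher, without passing; the median over members was -2.25 and over all genes -0.01. With the line as a block, Irx3 also passed (-2.25 ± 0.40, 0.0280), and the count over all genes rose from 380 to 648.

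These calls rested on single arrays. None of the 4 passed without secondary replicate 2 (Pax3 at 0.117, Pax6 at 0.130, Pax7 at 0.0584 and Gbx2 at 0.153) or with only the 2 groups fitted (0.0829 for the 3 Pax genes and 0.104 for Gbx2). Pax3, Pax6 and Gbx2 were lost without secondary replicate 1 (0.0635, 0.0531 and 0.0635), Pax3 and Gbx2 without primary replicate 2 (0.0531 and 0.0676) and Pax6 without primary replicate 1 (0.0541), while the log2 differences stayed between -3.38 and -2.17. En1 passed without primary replicate 2 (2.77, 0.0236), and Irx3 without pluripotent replicate 1 (0.0173) or 2 (0.0167). Scaling to a common median added Irx2 (-1.59, 0.0441) and Irx3 (-2.60, 0.0386), a pseudocount of 0.2 times the trimmed mean added En1 (adjusted p = 0.0386) and Irx3 (-2.15, 0.0224), and a pseudocount of 0.01 times it lost Pax3 (-3.71, 0.0596).

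Secondary neurospheres are of pluripotent origin and GE neurospheres of forebrain origin. The secondary ones were higher in En2 by 4.33 ± 0.72 (adjusted p = 0.0182), En1 by 3.71 ± 0.61 (0.0179), Irx3 by 3.33 ± 0.67 (0.0345) and Irx2 by 2.45 ± 0.49 (0.033), and lower in Pax6 by a log2 difference of -2.21 ± 0.50 (0.0489). These were 4 of 9 members higher, where 2.4% of all genes were, and 1 of 9 lower, where 1.49% were. Nr2f1 differed by 0.21 ± 0.35 (0.828), with signals of 1163 and 1350.3 against 1082. Pax3 (1.45 ± 0.60, 0.247), Gbx2 (0.65 ± 0.49, 0.552) and Pax7 (0.09 ± 0.48) read at most 20.4 in all 3 arrays; medians were 1.45 over members and 0.03 over all genes.

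No call between secondary and GE neurospheres held throughout. Without secondary replicate 2 none of the 5 passed (adjusted p 0.0672 for En1, 0.0733 for En2, 0.101 for Irx2, 0.0866 for Irx3 and 0.163 for Pax6), and without secondary replicate 1 only En2 did (0.0584 for En1, 0.102 for Irx2, 0.118 for Irx3 and 0.110 for Pax6). Leaving out an array of groups outside the comparison left Pax6 between 0.0526 and 0.0784, and Irx3 was at 0.0518 to 0.0737 when any 1 of the 4 fibroblast-derived arrays was left out. Irx2 was at 0.0506 without adult-derived replicate 1, 0.0695 without embryonic-derived replicate 3 and 0.0698 without replicate 4. Where a call was lost on leaving out an array, the log2 difference lay between -2.39 and -2.03 for Pax6 and between 2.44 and 3.92 for the others.

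Adult-derived and embryonic-derived neurospheres were compared last, as the 2 ages of source fibroblast. By limma 0 of 9 members passed, where 0.0659% of all genes were higher and 0.403% lower; at an unadjusted p under 0.05 there were 3 members and 1603 of all genes. Those 3 were En1 at 2.10 ± 0.50 (adjusted p = 0.151), Pax3 at 1.87 ± 0.49 (0.19) and Irx3 at 1.44 ± 0.55 (0.362). In 7 of 9 members both adult-derived arrays lay above both embryonic-derived ones, with Irx2 and Gbx2 the exceptions; 27.8% of all genes did so, and 55.4% did not overlap in either direction. The median was 0.73 over members and 0.00 over all genes. The pairs differ in medium as well as in age, and only LIF alone was used for both; there Pax3 read 37.9 against 0.5, Irx3 254 against 71.1 and En1 23.0 against 0.6, 1 array each. Tpbpa, a trophoblast gene, read 1325 and 687 in the embryonic-derived cultures and at most 5.6 elsewhere. Of the other measured trophoblast genes, Cdx2 read 14.4 and 11.9 there and 30 in ES-derived primary neurospheres. Elf5 read 17.8 and 21.5 there and 24 in the adult-derived culture with LIF. Lyz2, a macrophage gene, read 1434 in replicate 3, 42.3 in replicate 4 and 348 in fibroblasts. Csf1r read 221 and 59.8 in replicates 3 and 4, while Cd68 (150 and 205) and Laptm5 (113 and 135) were higher in replicate 4. The part of these genes in the differences was not tested.

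Within the fibroblast-derived neurospheres the members varied unequally. Over the 4 arrays Nr2f1 had a mean signal of 258 ± 61.6 (SD, n = 4), Irx2 112 ± 30.8, En2 52.0 ± 17.8, Gbx2 43.9 ± 16.8 and Pax6 23.5 ± 10.4, whereas Irx3 (137 ± 87.5), Pax3 (14.7 ± 16.5), En1 (12.1 ± 12.2) and Pax7 (5.33 ± 4.44) had a larger SD for their mean. Between media of the adult pair, EGF and cAMP minus LIF, Pax3 differed by -1.17, Pax7 by -0.89, Irx3 by -0.70 and Gbx2 by 0.79 on the log2 scale, and the other 5 members by 0.53 or less in size. Between media of the embryonic pair, LIF and cAMP minus LIF, Pax3 differed by 1.01, Pax6 by -1.09 and Gbx2 by -0.71, and the other 6 by 0.42 or less. These are differences between single arrays with no test, and the adult pair also differed in its fibroblast marker sum (362 and 2996).

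The other probe sets of a member showed whether the chosen one stood alone. Both other Pax3 probe sets had a signal of 46.4 to 123 in primary neurospheres and at most 25.9 elsewhere, with r = 0.93 and 0.98 to the one used, and gave 3.22 and 3.17 for primary against pluripotent cells where the chosen one gave 4.09. The second Pax7 probe set read 29.3 and 19.2 in primary neurospheres and at most 6.5 elsewhere (r = 0.87). It gave the other sign for fibroblast-derived cells against the pluripotent lines (-0.18, where the chosen one gave 0.81) and against GE neurospheres (-0.34 and 0.88). Of the 4 other Pax6 probe sets, 1 followed the one used (r = 0.97; -2.17 against GE neurospheres where the chosen one gave -3.25), and the remaining 3 did not reach 20 on any array. En1, En2, Gbx2, Irx2, Irx3 and Nr2f1 each had 1 probe set.

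**Figure D3:**
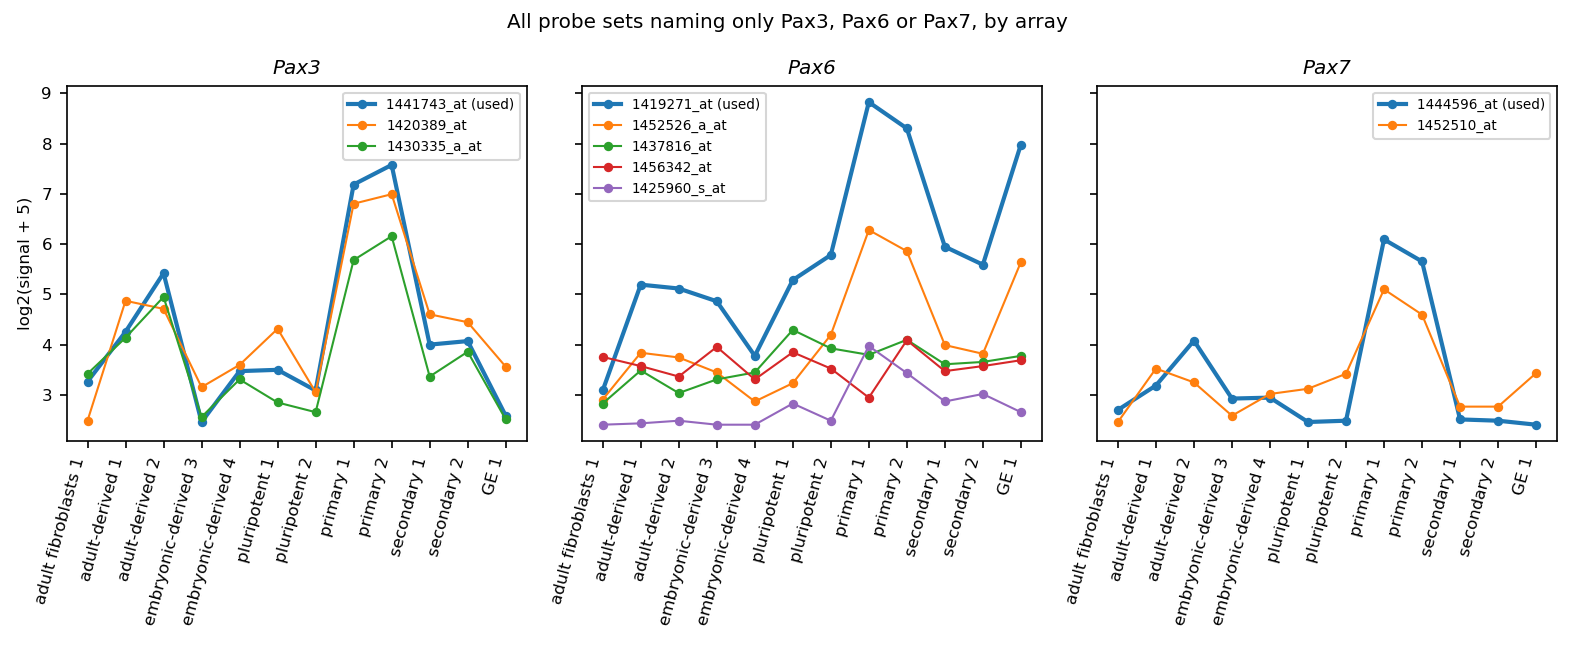
Level, as log2(signal + 5), of every probe set naming only Pax3, Pax6 or Pax7 on the 12 arrays, with the one used drawn thick; lines join the readings of 1 probe set and imply no order. All 3 Pax3 probe sets and both Pax7 probe sets are highest on the primary arrays, and 3 of the 5 Pax6 probe sets stay dim throughout.

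Genes of the same families and networks were read from lists, chosen with earlier results of these data known. Among 9 other Pax and Irx genes 5 passed the filter. Irx5, which lies beside Irx3 with no protein-coding gene between them, read 733 and 409 in primary neurospheres, 231 and 147 in adult-derived and 33.9 and 47.8 in embryonic-derived neurospheres, 205 and 114 in secondary neurospheres, 131 in fibroblasts, 16.4 and 4.1 in pluripotent lines and 16.6 in GE neurospheres. Its pattern was that of Irx3 (r = 0.97), with rises of 5.31 ± 0.50 in primary neurospheres over pluripotent cells (adjusted p = 0.000355) and 2.10 ± 0.56 in fibroblast-derived over GE neurospheres (0.0237). In the latter comparison Irx1 did not pass (0.65 ± 0.50, 0.367), with signals of 11.4 to 56.2 against 16.3. Irx1, the neighbour of Irx2, was less alike it (r = 0.73): it fell from 193 in fibroblasts to 56.2 and 40.6 in the adult-derived neurospheres (-1.90 ± 0.55, 0.043), where Irx2 read 154 and 105. Pax9, a factor of pharyngeal pouch and skeletal development, was below secondary neurospheres in the fibroblast-derived ones (-1.70 ± 0.47, 0.0246), and Pax5, the relative of Pax2 at the midbrain-hindbrain border, read 21.5 in GE neurospheres and at most 11.7 elsewhere.

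Among 13 midbrain-hindbrain boundary genes 10 passed the filter, and 4 were called between primary neurospheres and pluripotent cells, 3 higher and 1 lower, where 19.3% and 10.8% of all genes were. Foxa2, a floor plate and ventral midbrain factor, had signals of 290 and 266 in primary and 534 and 656 in secondary neurospheres, 28.7 or less in the fibroblast-derived neurospheres and 6.8 in GE neurospheres. Like En1 and En2 it was lower in fibroblast-derived than in secondary neurospheres (-5.47 ± 0.59, adjusted p = 0.000349) and higher in secondary than in GE neurospheres (5.66 ± 0.83, 0.0137). Lmx1b, a LIM-homeodomain factor of the boundary network, shared both differences (-1.83 ± 0.44, 0.0138, and 2.79 ± 0.62, 0.047). Of the 10 genes, 2 were lower in fibroblast-derived than in secondary neurospheres, where 16.7% of all genes were, with a list median of 0.28. In secondary against GE neurospheres 2 were higher, where 2.4% of all genes were, with a list median of 0.27. Fgf17, a signal of the boundary, was at 65.4 and 157 in pluripotent cells and at most 18.6 elsewhere, and Gbx1, the relative of Gbx2, rose in primary neurospheres (1.58 ± 0.42, 0.0239) where Gbx2 lay lower without passing. Otx2, named for its textbook opposition to Gbx2 and after its values were seen, read 3.4 in iPS-derived and 320 in ES-derived primary neurospheres and 15.5 and 329 in the adult-derived cultures. It read 200.5 and 247 in the pluripotent lines, where Gbx2 was highest, and 310 and 228 in the embryonic-derived cultures. In GE neurospheres it read 127, in secondary neurospheres 1.0 and 18.7 and in fibroblasts 0.1. It did not pass the F test (adjusted p = 0.144).

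The 3 nuclear receptors related to Nr2f1 all passed the F test, which 61.6% of all genes tested also passed. Nr2f2 (COUP-TFII) went with it (r = 0.92), from 2.0 and 3.1 in pluripotent cells to 405 and 254 in primary neurospheres (5.44 ± 0.40, adjusted p = 0.000185) and 111 to 175 in fibroblast-derived neurospheres (4.26 ± 0.35, 0.000217). In GE neurospheres, where Nr2f1 was high, Nr2f2 read 100.3, below all 4 fibroblast-derived arrays, but this difference did not pass (0.46 ± 0.45, 0.478). Nr2e1 (Tlx), a factor of forebrain stem cells, read 105 in GE neurospheres and at most 7.6 on the other 11 arrays (-3.64 ± 0.39, 0.000472, for fibroblast-derived against GE neurospheres). Nr2f6 rose in primary neurospheres by 2.27 ± 0.30 (0.00144).

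The Pax-Six-Eya-Dach network, partners of Pax genes in eye, muscle and placode, had 9 genes tested. Between fibroblast-derived and pluripotent cells 4 were higher and 1 lower, where 20.4% and 9.77% of all genes were. Dach1 had signals of 558 and 285 in primary neurospheres against 2.6 and 4.3 in pluripotent cells (5.59 ± 0.53, adjusted p = 0.000367), and Dach2 and Eya4 rose with it (3.73 ± 0.38, 0.000486, and 2.44 ± 0.39, 0.00291). Eya2 was raised in the adult-derived neurospheres over fibroblasts (3.99 ± 0.80, 0.0111).

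Of 13 dorsal neural tube and neural crest genes tested, 3 were higher and 2 lower in fibroblast-derived than in GE neurospheres, where 15.6% and 12.8% of all genes were. Tfap2a, a neural crest and surface ectoderm factor, read 209 to 379.5 in the fibroblast-derived neurospheres and 8.1 to 97.4 elsewhere (3.90 ± 0.66, adjusted p = 0.00354), while Sox10, the crest and oligodendrocyte lineage factor, read at most 6.1 there and 422 in GE neurospheres (-5.74 ± 0.55, 0.000337). Ets1, a crest and endothelial factor, rose from primary to secondary neurospheres (3.05 ± 0.44, 0.0157) as Pax3 and Pax7 fell, and Lmo4 was higher in primary neurospheres than in pluripotent cells (2.62 ± 0.32, 0.000896). In the eye and lens list 5 of 7 were lower in fibroblast-derived than in GE neurospheres, where 12.8% of all genes were. Meis2 and Meis1 of that list, homeodomain cofactors, rose in primary neurospheres by 5.91 ± 0.35 (0.000109) and 5.56 ± 0.52 (0.000352), Prox1 by 2.99 ± 0.46 (0.00245) and Sfrp2, a secreted Wnt inhibitor, by 4.34 ± 0.48 (0.000652). Of the skeletal myogenic list, Myf5, Myod1, Myog and Myf6 did not reach 20 on any array. Lbx1, a factor of dorsal spinal neurons and migrating muscle precursors, was higher in primary neurospheres than in pluripotent cells (2.83 ± 0.57, 0.00782). So was Met, the receptor of hepatocyte growth factor (1.29 ± 0.38, 0.0358), in a comparison where 19.3% of all genes were higher. A muscle role of Pax3 and Pax7 was not tested.

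**Figure D4:**
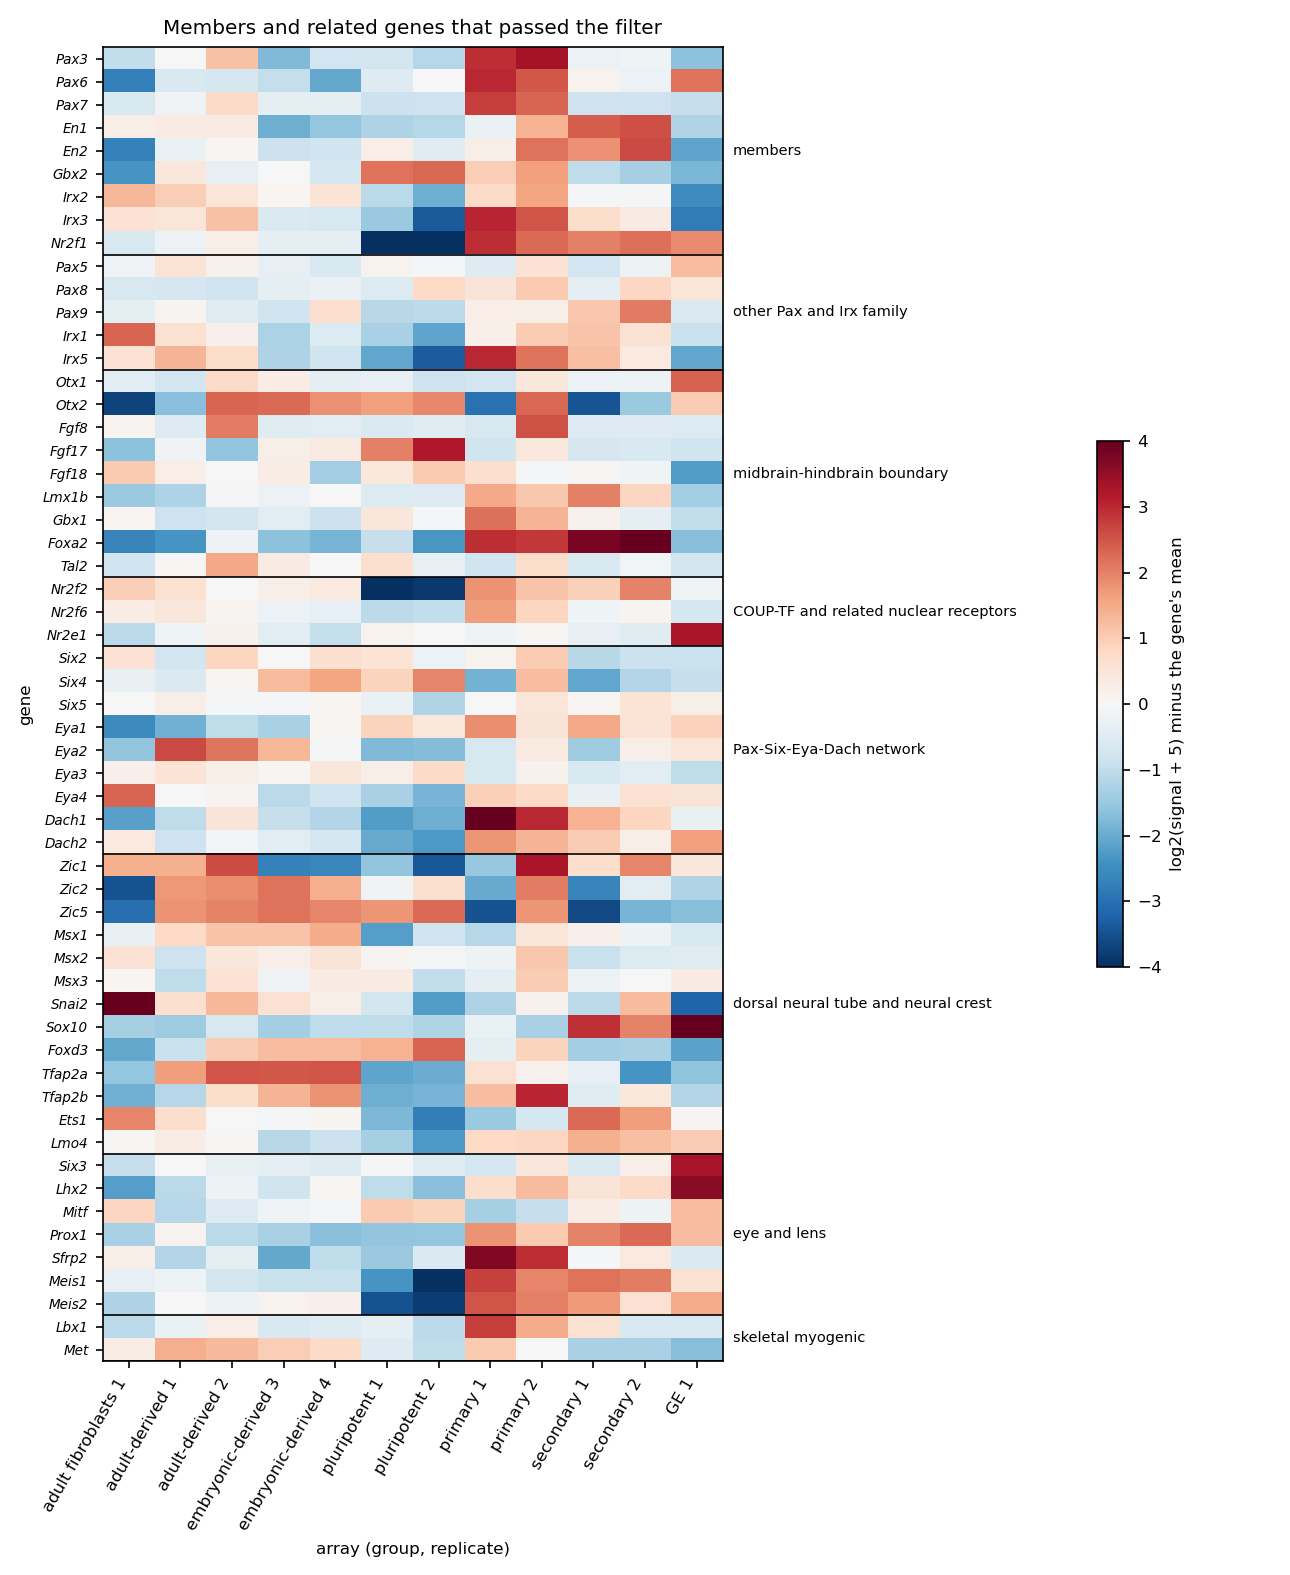
Level of each member and of each listed gene that passed the filter, as log2(signal + 5) minus the gene's mean over the 12 arrays; rows are genes in blocks by list, columns are arrays, and values beyond 4 in either direction take the end colour. Irx3 and Irx5 show the same rows of red and blue, and Foxa2, En1 and En2 are red on the secondary arrays.

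The genes most alike in pattern, by Pearson correlation of log2 levels over the 12 arrays among all 13650, are given as a description. For Pax3 they were Klhl14 (r = 0.97), Sp8 (0.95) and Neurod4 (0.94), and for Pax7 Neurod4 (0.95), Nhlh2 (0.95) and Dbx1 (0.94). For Irx3 the closest gene was its neighbour Irx5 (0.97), then Efnb2 (0.94) and Hoxb2 (0.93). En1 was closest to Ttc6 (0.91), Hoxb6 (0.90) and Frem1 (0.90), and En2 to Tmem138 (0.94), Jag1 (0.91) and Pdlim3 (0.89). Pax6 was closest to Ptbp2 (0.95), Usp42 (0.94) and Mycl (0.94), Gbx2 to Pabpn1 (0.98), Nelfa (0.97) and Smg5 (0.97), Irx2 to Chd3 (0.92), Zfhx4 (0.90) and Hmga2 (0.90), and Nr2f1 to Pak3, Hp1bp3 and Cux1 (all 0.98).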

How the data were processed

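RNA of 12 mouse cultures was hybridized to Affymetrix arrays. The authors' deposited values are linear signal intensities; the submitters' processing notes name MAS5 and Affymetrix Expression Console 1.1. Their 2%-trimmed mean was 100 on every array, which hides changes in total RNA. Detection calls were not used; the number of arrays limits the precision.

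Probe sets were named through the platform annotation (34945 with 1 symbol; 0 updated), and a gene was read from the passing probe set with the highest mean. Log2(signal + 5) was tested with limma 3.58.1 in R 4.3.3 (lmFit, eBayes with trend; 5 residual and 3.63 prior degrees of freedom), after checks on simulated data. The scaling, pseudocount, filter, probe set, block and array alternatives are in the closing section. Arrays with 1 number share a line in the pluripotent, primary and secondary groups; their deviations correlated at 0.25 (pluripotent with primary), 0.06 (pluripotent with secondary) and 0.43 (primary with secondary).

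All members are named, as are the 3 genes most alike to each and the 4 genes of each list with the smallest F-test p. Members and lists were chosen with earlier results of these data known.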

Additional observations from a re-analysis of the deposited data

Results flagged for a closer look

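En2 changed differently in the 2 pluripotent lines on the way to primary neurospheres. It went from 86.4 to 84.0 in the iPS line, a log2 change of -0.04, and from 49.3 to 334 in the ES line, a log2 change of 2.64. The iPS change minus the ES change was -2.68. Each value rests on 1 array per line and stage, and the difference was not tested. The sum of 6 pluripotency markers was 215 in the iPS-derived and 4255 in the ES-derived primary culture, with 1 and 6 of them reaching 20, and its part in the difference was not tested.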

How the results depend on the processing

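The called member differences were recomputed under 664 combinations of a difference and an alternative. In 579 the call and direction were kept, in 85 the adjusted p passed 0.05, and in 0 the sign turned. For adult-derived neurospheres against fibroblasts the count of called members went from 3 to 1 with a pseudocount of 0.2 times the trimmed mean, to 1 with only the groups compared in the fit, and to 0 to 3 when single arrays were left out. For secondary against primary neurospheres it went from 4 to 0 with only the groups compared, which leaves fewer arrays for the spread, and to 0 to 5 without single arrays; for secondary against GE neurospheres it went from 5 to 0 with only the groups compared and to 0 to 4 without single arrays. Against secondary neurospheres the fibroblast-derived count of 4 became 2 to 4 without single arrays. Elsewhere, leaving out an array gave 4 to 6 (against GE), 4 to 5 (against pluripotent), 6 to 8 (primary against pluripotent), 0 to 0 (adult against embryonic) and 9 to 9 (F test). With the replicate block by line, 5 rather than 4 members were called from primary to secondary neurospheres and no other member call changed; over all genes the adult against embryonic count went from 64 to 29. A filter at the trimmed mean removed Pax7. The 2 settings that use 1 fibroblast-derived pair alone were chosen after seeing the data. For calls that were lost, the cause was not tested. Signals near or under 20 limit Pax7, En1 and Pax3 outside their high groups.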
